A study of Mus musculus with 4 samples.

Results

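White adipocytes store triglyceride in lipid droplets, and 10 genes for their secreted hormones, droplet proteins and fatty acid handling were followed in 4 arrays of mouse mammary epithelial cells. The genes were Adipoq, Lep, Fabp4, Plin1, Plin4, Plin5, Cidec, Lpl, Retn and Cfd. A gene was taken from the probe sets that the platform annotation maps to exactly 1 symbol, and a gene with several was read from the probe set with the greatest average over all arrays. By that rule 9 of the 10 were found among 22180 genes, and Cfd was not analysed here. Plin5 was chosen by its difference between the groups, the same measure described here, so its values are given without a test. The other genes were chosen as known fat cell genes, with earlier results of these data known.

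The samples were mammary epithelial cells from the inguinal glands of 4 week-old mice on a congenic FVB/NJ background. Those of 2 mice or pools came from animals with the transgene MMTV-Cre, written MMTV-Cre+ in the labels, in which a mammary tumour virus promoter drives the Cre recombinase, mainly in mammary and some other epithelia. Cre itself was not analysed here. The other 2 came from wild-type littermates. No floxed allele is named for either group, the labels name the samples as biological replicates, and they do not say whether animals were pooled. The glands were described as free of lymph node, and stromal cells were to be removed by centrifugation after collagenase digestion. Each sample had 1 array, and values are log2 expression by RMA, a method that makes the arrays' distributions alike, so 1 unit is a 2-fold step in signal.

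The mammary duct grows into a pad of white fat, whose adipocytes are large, lipid-filled cells that float in the centrifugation used to collect epithelial pieces. Adipocytes secrete adiponectin and leptin, take up fatty acids released from lipoproteins, and keep triglyceride in droplets whose surface is guarded by perilipins. Several of these genes are not restricted to adipocytes: capillary endothelium and macrophages express Fabp4 and Lpl, and Plin5 is best known in tissues that burn fatty acids, such as heart, liver and brown fat.

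Promoter sequences are shown for Plin5, Plin1, Plin4 and Cidec. For the first and second of these no MMTV-Cre value reached a wild-type value, Plin4 lies beside Plin5 on the chromosome and had overlapping groups, and Cidec varied most between arrays. Each window runs from 250 bases before to 50 bases after an annotated start, in RefSeq sequence of build GRCm38.p6, and is written 5′ to 3′ on the gene's strand. Capitals mark matches, on either strand, to AGGTCA, the core site of nuclear receptors such as PPARG, or to TTGCNNAA, a pattern of C/EBP factors. Both factor families drive fat cell differentiation.
Plin5 promoter, chr17:56117499-56117798, minus strand: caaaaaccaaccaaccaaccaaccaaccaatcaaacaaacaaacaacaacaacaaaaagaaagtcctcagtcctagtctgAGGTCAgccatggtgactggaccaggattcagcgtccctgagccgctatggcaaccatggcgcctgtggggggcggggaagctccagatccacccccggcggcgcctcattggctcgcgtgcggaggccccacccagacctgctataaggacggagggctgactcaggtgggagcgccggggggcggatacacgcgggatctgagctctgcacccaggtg
Plin1 promoter, chr7:79732727-79733026, minus strand: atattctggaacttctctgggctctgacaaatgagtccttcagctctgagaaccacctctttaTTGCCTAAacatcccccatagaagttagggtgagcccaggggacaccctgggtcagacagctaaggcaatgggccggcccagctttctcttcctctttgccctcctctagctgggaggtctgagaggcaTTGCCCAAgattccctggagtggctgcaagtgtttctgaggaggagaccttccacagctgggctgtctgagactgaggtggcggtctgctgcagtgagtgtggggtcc
Plin4 promoter, chr17:56109733-56110032, minus strand: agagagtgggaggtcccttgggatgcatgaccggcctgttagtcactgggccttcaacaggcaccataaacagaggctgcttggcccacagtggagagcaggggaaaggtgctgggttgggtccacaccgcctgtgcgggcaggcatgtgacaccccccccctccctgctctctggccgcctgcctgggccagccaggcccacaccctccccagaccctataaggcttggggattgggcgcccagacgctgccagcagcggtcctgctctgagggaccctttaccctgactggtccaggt
Cidec promoter, chr6:113434715-113435014, minus strand: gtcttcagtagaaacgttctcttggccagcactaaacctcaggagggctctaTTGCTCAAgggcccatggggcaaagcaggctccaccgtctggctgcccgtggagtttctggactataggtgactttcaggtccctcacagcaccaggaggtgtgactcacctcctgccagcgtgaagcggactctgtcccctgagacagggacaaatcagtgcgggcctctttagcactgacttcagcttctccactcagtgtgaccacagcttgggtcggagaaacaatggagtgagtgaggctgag

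The sequence table held 10 windows for 8 of the 10 genes, since Plin5 and Cidec have more than 1 annotated start, and held none for Fabp4 and Lpl. The direct repeat of this core with 1 base between, bound by PPARG with its partner RXR, was in 0 of these windows and in 0.0396% of the 32851 windows of all genes. The single core site, which the direct repeat contains, was in both windows of Plin5 and in no window of the other genes, against 16.3% of all windows. It began 170 bases before the start in the Plin5 window shown. The C/EBP-type pattern was in 3 of the 10 windows, those of Plin1, Lep and 1 of Cidec, against 10.8% of all windows. In Plin1 it began 187 and 58 bases before the start and in the Cidec window shown 198 bases before it. A match is a run of letters and shows no binding.

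**Figure D1:**
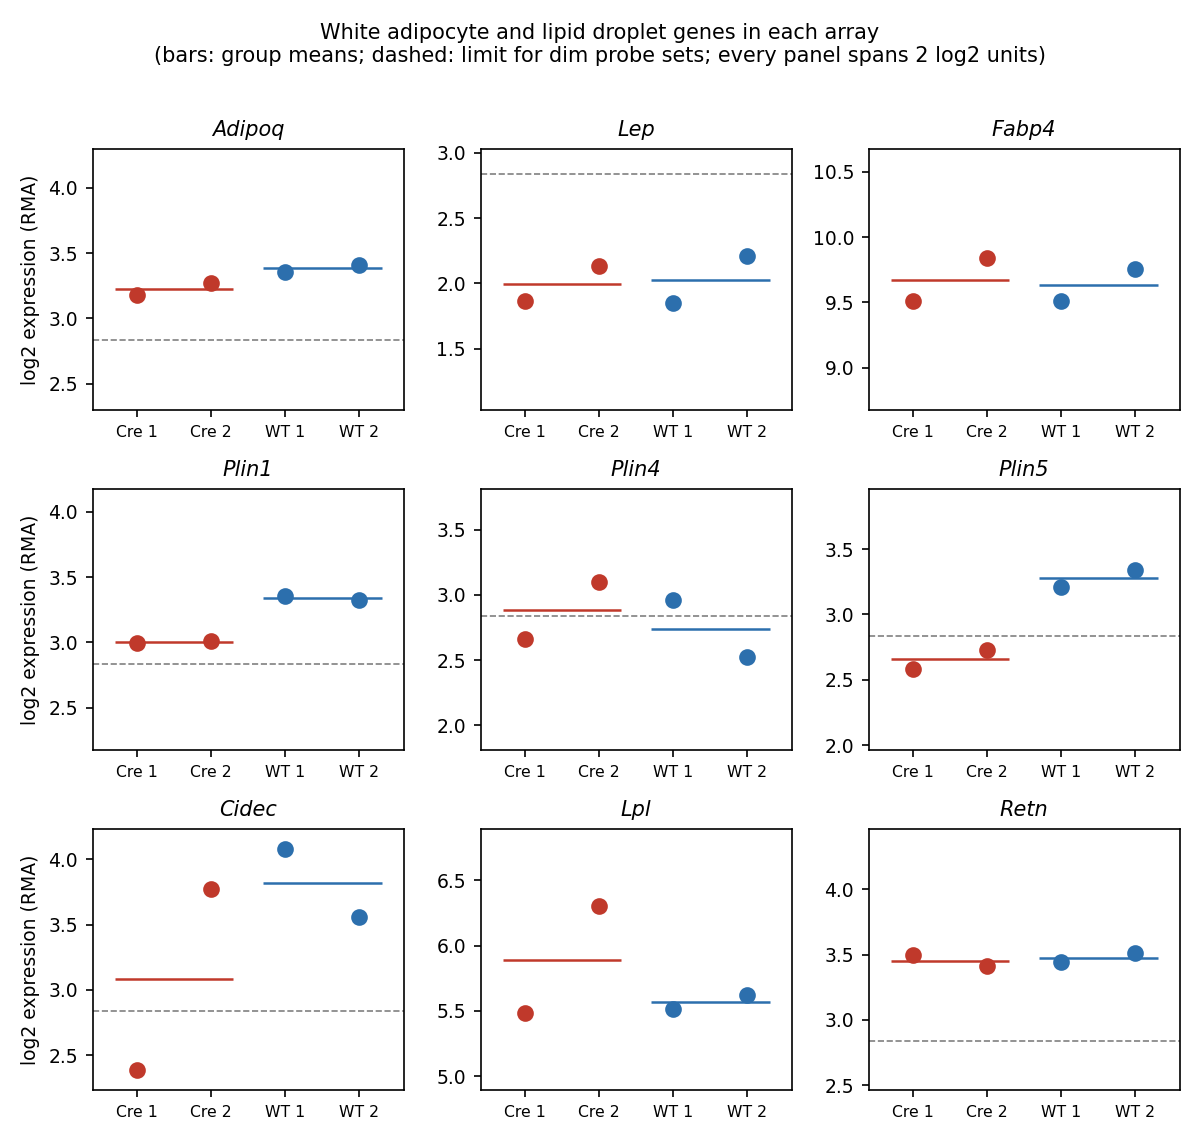
Log2 expression (RMA) of the 9 measured genes in the 4 arrays, with MMTV-Cre in red, wild-type in blue, group means as bars and the 2.84 limit for dim probe sets as a dashed line where it falls in the panel. Neither MMTV-Cre array reached a wild-type array for Plin5 or Plin1, Cidec was low in MMTV-Cre replicate 1 and Lpl high in MMTV-Cre replicate 2.

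The perilipins coat the droplet and control access of lipases to it. Plin5 (Entrez Gene 66968) measured 2.58 and 2.73 in MMTV-Cre against 3.21 and 3.34 in wild-type. Both MMTV-Cre values lay below both wild-type values and below 2.84, the median over all probe sets and the limit set for dim ones. The gene's mean over the 4 arrays was 2.97, above that limit only through the wild-type arrays. The group means, 2.66 ± 0.10 and 3.28 ± 0.09 (SD, n = 2 each), differed by −0.62 log2 units, MMTV-Cre minus wild-type, a 1.54-fold step. This is the difference for which the gene was picked, and on dim probe sets the size of a difference is uncertain.

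Plin1 (Entrez Gene 103968) encodes the main perilipin of the white adipocyte droplet, which holds lipolysis back until hormones release it. It measured 2.996 and 3.011 in MMTV-Cre against 3.35 and 3.33 in wild-type. The groups did not overlap, and each pair of arrays lay close together. All 4 arrays lay above the dim limit of 2.84 by less than 1 log2 unit, so the size of the difference is uncertain. The difference was −0.34 (95% limma interval −0.61 to −0.07, n = 2 per group), and it did not pass the test across genes (limma, adjusted p = 0.964, unadjusted p = 0.0241). Of all genes tested, 4.32% reached an unadjusted p under 0.05, and 0 of 11668 passed an adjusted p of 0.05.

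Plin4 (Entrez Gene 57435), a perilipin of nascent droplets, is the neighbour of Plin5 in the RefSeq gene order. It measured 2.66 and 3.10 in MMTV-Cre against 2.96 and 2.52 in wild-type, so the groups overlapped and the arrays lay on both sides of the dim limit. The difference was 0.14 (interval −0.40 to 0.68, from the fit over all 22180 genes, since the mean of 2.81 was below the limit). The gene on the other side of Plin5, Lrg1, had no overlap, with 4.84 and 5.37 in MMTV-Cre and 5.50 and 5.49 in wild-type, a difference of −0.39. Hdgfl2, next to Plin4, was lower in MMTV-Cre by 0.20 log2 units, also without overlap. Sema6b, the next gene after Lrg1, was higher in MMTV-Cre by 0.25 log2 units without overlap. Of all genes, 16.3% were lower and 16.6% higher in MMTV-Cre without overlap. Cidec (Entrez Gene 14311), which passes lipid between droplets and gives adipocytes their single large one, had the widest spread of the 9 genes, 1.69 log2 units. It measured 2.39 in MMTV-Cre replicate 1 and 3.77 in MMTV-Cre replicate 2, against 4.08 and 3.56 in wild-type. A single MMTV-Cre array was low, and the other lay between the wild-type arrays. The difference of −0.74 (interval −1.95 to 0.48, limma adjusted p = 0.964) was −0.04 without MMTV-Cre replicate 1.

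Among the secreted products, Adipoq (Entrez Gene 11450) encodes adiponectin, the hormone that defines the adipocyte. It measured 3.18 and 3.27 in MMTV-Cre against 3.35 and 3.41 in wild-type. The groups did not overlap, but the interval of the difference, −0.16 (−0.44 to 0.12, limma adjusted p = 0.964), includes 0. All 4 arrays lay above the dim limit by less than 1 log2 unit. The leptin gene Lep (Entrez Gene 16846), the signal of fat stores, lay below the limit in all 4 arrays, at 1.86 and 2.13 in MMTV-Cre and 1.85 and 2.21 in wild-type. Retn (Entrez Gene 57264), which encodes the adipose hormone resistin, measured 3.50 and 3.41 in MMTV-Cre against 3.45 and 3.51 in wild-type, a spread of 0.10 over all arrays. Its difference was −0.02 (−0.31 to 0.26), and that of Lep was −0.03 (−0.47 to 0.41, from the fit over all genes). Neither hormone gene differed beyond the spread between arrays.

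Fatty acid handling was represented by Lpl and Fabp4. Lpl (Entrez Gene 16956) encodes lipoprotein lipase, which frees fatty acids from lipoproteins at the capillary wall. It measured 5.48 in MMTV-Cre replicate 1 and 6.30 in MMTV-Cre replicate 2, against 5.51 and 5.62 in wild-type. A single MMTV-Cre array was high and the other lay just below both wild-type arrays. The second Lpl probe set had the same pattern, with 5.05 and 5.86 in MMTV-Cre against 5.13 and 5.07. The difference of 0.33 (interval −0.39 to 1.04, limma adjusted p = 0.976) turned to −0.08 without MMTV-Cre replicate 2. Fabp4 (Entrez Gene 11770) encodes the fatty acid carrier of adipocytes and capillary endothelium. It measured 9.51 and 9.84 in MMTV-Cre against 9.51 and 9.76 in wild-type, far above the dim limit in every array. The difference was 0.04 (−0.39 to 0.47, limma adjusted p = 0.995), with 1 array of each group at the lower level.

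**Figure D2:**
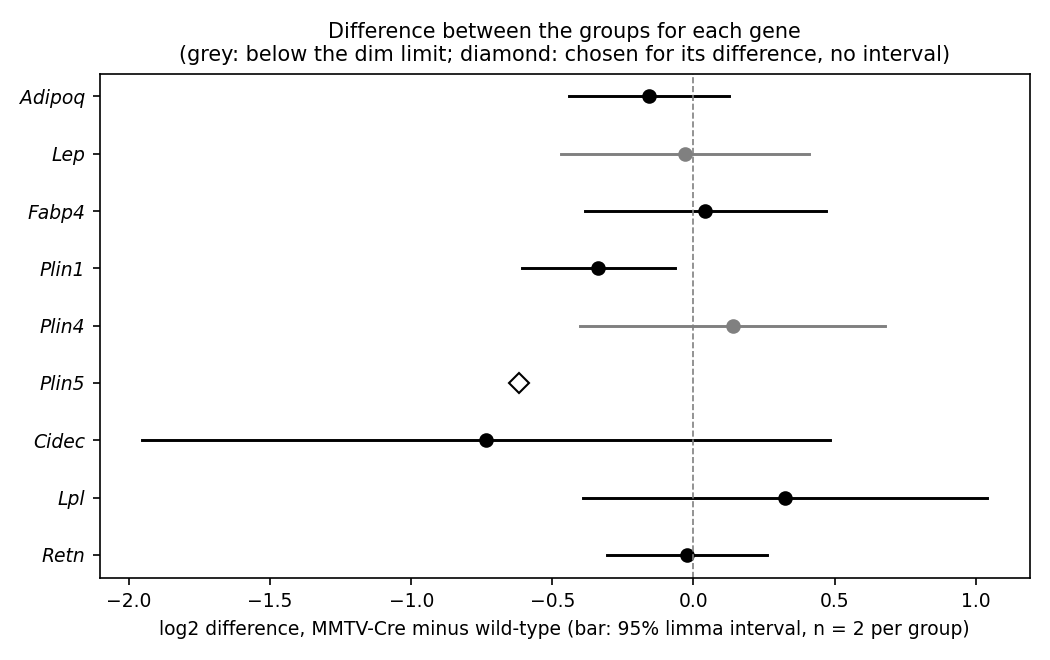
Log2 difference of each gene, MMTV-Cre minus wild-type, with 95% limma intervals (n = 2 per group). Grey marks Lep and Plin4, which lay below the dim limit, and the open diamond Plin5, which was chosen for its difference and has no interval. Of the 8 genes with an interval, that of Plin1 alone, −0.61 to −0.07, does not include 0.

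Over the 9 measured genes, 6 differences were below 0 and 3 above, with a median of −0.03. Over all 22180 genes the median was −0.00 and 50.4% of differences were below 0. Groups did not overlap in 3 of the 9, Adipoq, Plin1 and Plin5, all lower in MMTV-Cre, and Plin5 had been picked for it. The count of 3 in 9 is near the 33% of all genes whose groups did not overlap. Of the 8 genes other than Plin5, 2 had both MMTV-Cre arrays as the lowest, beside 16.3% of all genes. Of the same 8, 1 had means at least 1.5-fold apart, Cidec, beside 1.11% of all genes, and it rested on MMTV-Cre replicate 1. In all, 7 of the 9 genes reached the dim limit. Plin5 was picked for its values, and 0 of the other 6 passed. Exact permutation of 2 arrays against 2 cannot give a two-sided p under 0.333, and the samples' number limits the precision. In RNA from a whole cell preparation of this kind, fewer cells of a type and less RNA per cell cannot be told apart.

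Markers of mammary epithelium were present in every sample. All 11 epithelial genes measured, among them Epcam and Krt8, lay above the dim limit in every array. Of the 11, 5 differences were above 0 and 6 below. Of the same 11, 3 were higher and 2 lower in MMTV-Cre with no overlap, beside 16.6% and 16.3% of all genes. The 3 higher were the keratin gene Krt18, at 0.18, and the claudin genes Cldn4 and Cldn3, at 0.17 each. The 2 lower were the keratin gene Krt8, at −0.06, and the cadherin gene Cdh1, at −0.13. The largest differences of the list, Krt14 at −0.33 and Trp63 at −0.24, had overlapping groups. The median of the 11 differences was −0.01. The part of epithelial content in the adipocyte gene values was not tested. Of 22 other white adipocyte markers, 19 were measured and 8 lay above the limit in all 4 arrays. Of the 19, 13 differences were above 0 and 6 below, with a median of 0.04. Groups did not overlap for 3 higher and 3 lower in MMTV-Cre, near the 16.6% and 16.3% of all genes. The adipogenin gene Adig, at 2.56 to 2.87, and the insulin-sensitive glucose transporter gene Slc2a4, at 2.20 to 2.70, were near or below the dim limit. The fat cell transcription factor gene Pparg measured 4.51 and 5.26 in MMTV-Cre against 4.31 and 4.80 in wild-type. Summed over the 19 markers, log2 levels were 64.9 and 69.0 in MMTV-Cre and 65.8 and 67.5 in wild-type. The MMTV-Cre arrays thus lay at both ends of the range. T cell transcripts set wild-type replicate 1 apart, with all 7 measured T cell genes at least 0.5 log2 units above the other arrays. The share of all genes so placed in that array is not given here. Without that array the median difference of the 9 genes went from −0.03 to −0.19. That of Fabp4 turned from 0.04 to −0.08, Lep went from −0.03 to −0.21, Plin4 from 0.14 to 0.36 and Cidec from −0.74 to −0.48. The other 5 genes kept their direction, with Plin1 at −0.32 and Adipoq at −0.19. Plin1, Adipoq and Plin5 could not have turned, since their groups do not overlap.

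The low Cidec value stood in MMTV-Cre replicate 1 alone. In that array 0.848% of tested genes lay at least 0.5 log2 units below all other arrays. The carbonic anhydrase gene Car3, an abundant adipocyte transcript, was the one such gene among the 19 other white adipocyte markers. It measured 5.64 in MMTV-Cre replicate 1 against 6.89, 6.89 and 6.67 in the other arrays, and its second probe set at 4.34 against 5.01 to 5.30. Among 2166 named protein-coding genes with a range of at least 0.5, the genes whose centred values over the 4 arrays lay nearest to those of Cidec were the cytochrome P450 gene Cyp2e1, Car3, the cytokine gene Il1b, Mcoln2 and Zfp994. Their Euclidean distances were 0.27 to 0.47 log2 units. Cyp2e1 measured 2.55 in MMTV-Cre replicate 1 against 3.98, 3.96 and 3.52 in the others. The macrophage list was also lowest in that array, with a mean of −0.27 after each gene was centred, against 0.27 in MMTV-Cre replicate 2 and 0.04 and −0.04 in wild-type. Its part in the Cidec value was not tested. Adipoq and Plin1 were also lowest there, at 3.18 and 2.996, by 0.09 and 0.015 below MMTV-Cre replicate 2. Of the 8 measured genes other than Cidec, 7 lay below their own mean in that array, among them Plin5, which was picked for its difference. Without Plin5 the count was 6 of 7. The share of all genes below their own mean there was not computed.

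**Figure D3:**
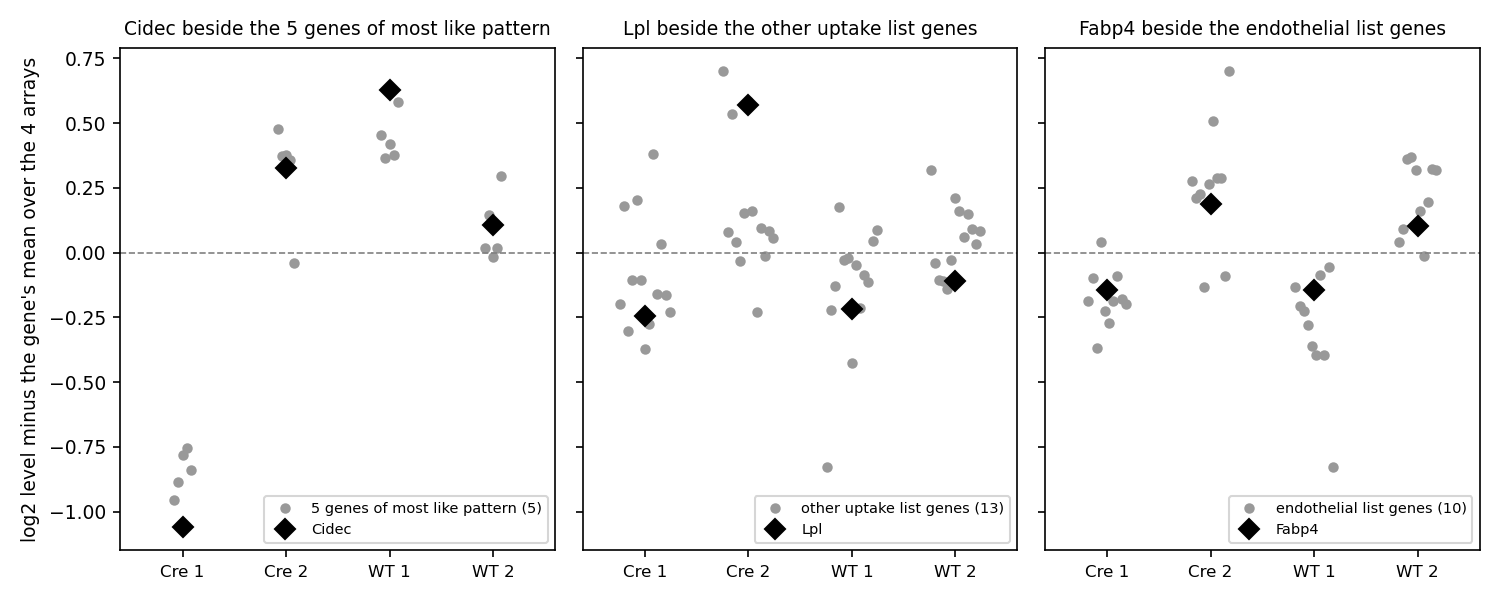
Log2 levels centred on each gene's mean over the 4 arrays, for Cidec with the 5 genes of most like pattern, Lpl with the 13 other genes of its uptake list and Fabp4 with the 10 endothelial genes. Cidec was lowest in MMTV-Cre replicate 1, Lpl highest in MMTV-Cre replicate 2, and Fabp4 and 8 of the 10 endothelial genes were higher in both arrays numbered 2.

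No gene of the uptake list passed the test with Lpl. Of the 13 other genes for lipoprotein lipase function and fatty acid uptake, 8 differences were above 0 and 5 below, with a median of 0.05, and 0 of the 11 tested passed. Lipa, the lysosomal acid lipase gene, was lower in MMTV-Cre without overlap, at −0.17 (interval −0.53 to 0.18, limma adjusted p = 0.976). Lmf1, which matures the lipase in the endoplasmic reticulum, was higher in both MMTV-Cre arrays, by 0.26 (interval −0.06 to 0.58, limma adjusted p = 0.964). Gpihbp1, which anchors the lipase on capillary endothelium, measured 5.42 and 6.32 in MMTV-Cre against 4.79 and 5.94 in wild-type. The following were chosen after their values were seen. Angptl4, an inhibitor of the lipase, measured 5.87 in MMTV-Cre replicate 2 against 5.04 to 5.23 in the others, and was the other gene of the list at least 0.5 above all arrays there, as were 0.66% of tested genes. The fatty acid receptor gene Cd36 was also highest in that array, at 7.93 against 6.92 to 7.56. The list of adipocyte progenitor and fibroblast genes had its highest mean there, 0.22, against −0.14 to −0.04 in the others, and so did the macrophage list. Their part in the Lpl value was not tested.

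Fabp4 was higher in the arrays in which endothelial genes were high. The endothelial list had a mean of 0.25 in MMTV-Cre replicate 2 and 0.22 in wild-type replicate 2, and of −0.18 and −0.30 in the replicates numbered 1. All 10 endothelial genes lay above the dim limit in every array, with summed log2 levels of 50.7 and 55.0 in MMTV-Cre and 49.5 and 54.6 in wild-type. Both arrays numbered 2 lay above both numbered 1 in 8 of the 10 endothelial genes, against 21.3% of genes tested. The same held for 4 of the 9 tested genes among the other white adipocyte markers and 3 of the 7 tested macrophage genes. Of the 7 genes described here that reached the dim limit, 2 did so, Fabp4 and Lpl. Replicate numbers are names only, and the part of endothelial, adipocyte or macrophage RNA in the Fabp4 value was not tested.

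The rest of the droplet and lipid pathways had no gene past the test. Among 10 other droplet genes measured, 6 differences were above 0 and 4 below, with a median of 0.04. The droplet dehydrogenase gene Hsd17b11 was higher in both MMTV-Cre arrays, by 0.24 (−0.16 to 0.65), while Plin3, the perilipin of exchangeable droplet coats, differed by −0.07. Plin2, the perilipin of most cell types, chosen after its values were seen, measured 6.34 and 6.94 in MMTV-Cre against 6.55 and 6.65 in wild-type. Of 9 lipolysis genes measured, 5 differences were above 0 and 4 below. Lipe, hormone-sensitive lipase, measured 4.50 and 4.34 in MMTV-Cre against 4.57 and 4.70 in wild-type, a difference of −0.22 (−0.54 to 0.10), and Pnpla2, adipose triglyceride lipase, differed by 0.07. Of 13 triglyceride synthesis genes, 7 differences were above 0 and 6 below. Dgat1, which makes triglyceride from diglyceride, differed by −0.24 (−0.68 to 0.20). It measured 5.61 and 5.65 in MMTV-Cre against 6.08 and 5.65 in wild-type, so the difference rested on wild-type replicate 1.

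No regulator or receptor gene passed the test. Of 15 adipocyte transcription factor genes, 10 differences were above 0 and 5 below, with a median of 0.05. Pparg differed by 0.33 (−0.44 to 1.10) and Mlxipl, a sugar-sensing activator of lipid synthesis, by 0.23 (−0.17 to 0.62). Ebf2 differed by 0.20 (−0.21 to 0.62) and Rxra by −0.16 (−0.54 to 0.22). Of the 6 receptor genes for adipokines, 3 differences were above 0 and 3 below. The leptin receptor gene Lepr measured 2.91 and 3.27 in MMTV-Cre against 3.27 and 3.50 in wild-type, and the adiponectin receptor gene Adipor2 differed by −0.10 (−0.38 to 0.18). Among 6 other adipokine genes, 4 differences were above 0. Retnla, whose product is related to resistin and is made by macrophages, was highest in MMTV-Cre replicate 2, at 8.07 against 7.08 to 7.48.

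Genes of heat-producing brown fat, in which Plin5 and Cidea are known to act, were measured for comparison. Of 9 measured, 6 differences were above 0 and 3 were higher in both MMTV-Cre arrays, Dio2, Ucp1 and Cox7a1, at 0.47, 0.33 and 0.10, beside 16.6% of all genes with both MMTV-Cre arrays highest. The interval of Dio2, a thyroid hormone deiodinase gene, was 0.07 to 0.87 (limma unadjusted p = 0.0283). None passed (limma, adjusted p = 0.964, 0.964 and 0.990). Cidea measured 3.42 and 3.31 in MMTV-Cre against 3.44 and 3.42 in wild-type. The genes with the values nearest to those of Plin5 after centring were Ccdc62, the ferrochelatase gene Fech, Gnao1, Zfp319 and Gipc3, at distances of 0.09 to 0.17 log2 units over the 4 arrays. Fech measured 3.64 and 3.82 in MMTV-Cre against 4.15 and 4.34 in wild-type. None of the 5 belongs to the droplet and adipocyte lists. The search left out the genes described here and all with a range under 0.5, so this is no result about Plin5.

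**Figure D4:**
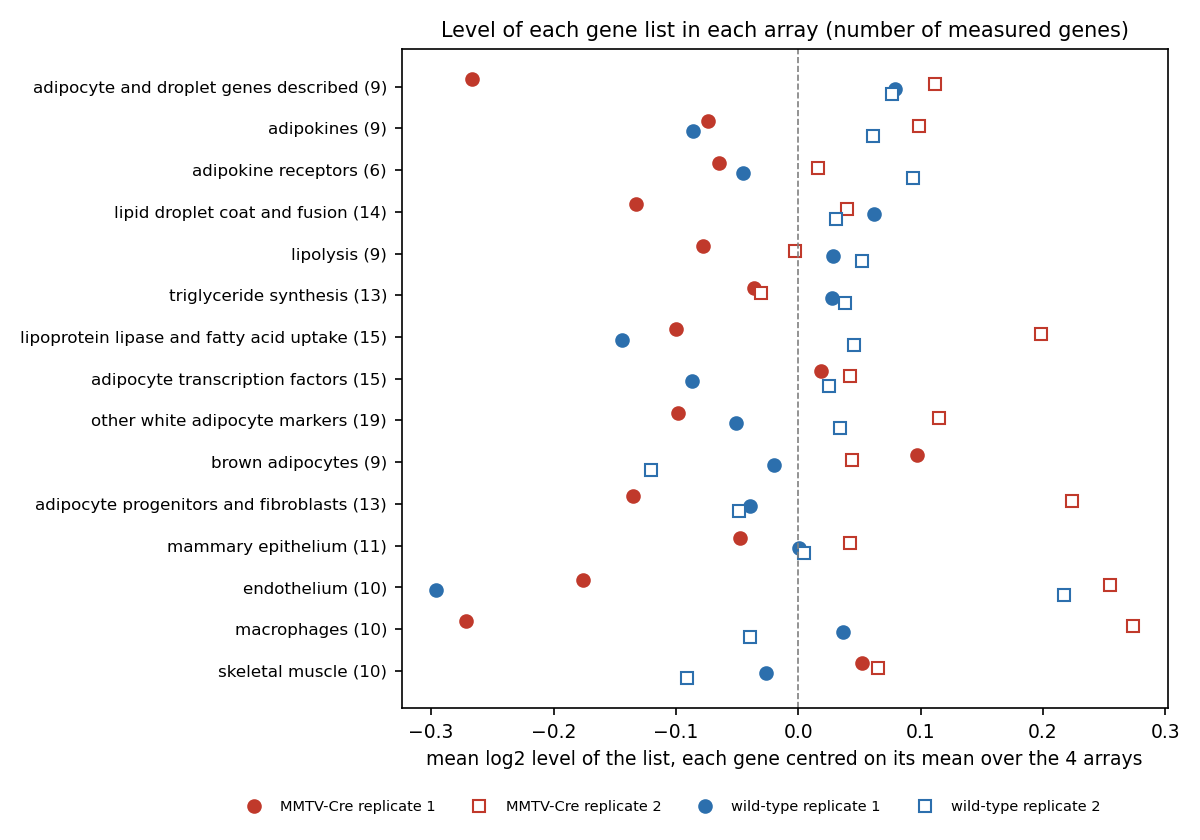
Mean log2 level of each gene list in each array after centring each gene on its mean over the 4 arrays, with MMTV-Cre in red, wild-type in blue, filled symbols for replicate 1 and open for replicate 2. The T cell list, high in wild-type replicate 1, is not drawn. The 9 genes described were lowest in MMTV-Cre replicate 1, at −0.27, or −0.17 without Cidec, and lay between 0.08 and 0.11 in the other arrays. Endothelial genes were higher in both arrays numbered 2.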

How the data were processed

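RNA was measured on Affymetrix arrays, 1 per sample, in 2 MMTV-Cre and 2 wild-type samples. The authors deposited log2 values of each probe set, computed with oligo and RMA per the submitters' processing notes, with versions and build not given in the sources used here. The log2 scale was read from the values, which ran from 0.37 to 12.48 with array medians of 2.83 to 2.86. Of 41345 probe sets, 23521 had 1 symbol in the platform annotation, 1814 several and 16010 none. Genes with a mean at or above 2.84, the median over probe sets, were tested (11668 of 22180). The 2 groups were set against each other in limma 3.58.1 (R 4.3.3, lmFit and eBayes), two-sided, with Benjamini-Hochberg adjustment at 0.05, tested on simulated data. P-values measure the spread between these samples only.

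The genes and lists were chosen with earlier results of these data known. Besides the 10 genes, the text names up to 4 genes of each list by smallest p, markers of cell types, and the 5 genes nearest in pattern to Cidec and to Plin5. Lrg1, Sema6b and Hdgfl2, neighbours of Plin5 on the chromosome, are named outside these rules. The alternatives covered the dim filter, probe set choice, normalization, variance model, replicate block, threshold and leaving out each array. Promoter sequences are from RefSeq (GRCm38.p6).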

Additional observations from a re-analysis of the deposited data

How the results depend on the processing

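None of the genes described passed an adjusted p of 0.05 under any alternative in which it was tested. Over all genes the count was 0 in the fits with all 4 arrays and ran from 0 to 13 when 1 array was left out, the 13 without wild-type replicate 2. At an unadjusted p under 0.05 it was 504, and 1 of the 6 tested genes besides Plin5 reached it, Plin1. With the replicate number as a block, 0 genes passed, and so 0 of the 6 tested besides Plin5. The labels do not say what the numbers mark, and deviations of same-numbered arrays correlated at −0.04 over 11668 genes. The median difference of the 9 genes was −0.03, and 0.18 under the stricter filter on dim probe sets, which left 2 of them, Fabp4 and Lpl, and 0 with groups that do not overlap. Leaving out 1 array gave medians of −0.19 to −0.04 and 5 to 7 genes without overlap, since a group of 1 array overlaps less often. The share of all genes without overlap at 1 array against 2 was not computed, so this count is no result about these genes. Chosen after seeing the data, the median was −0.16 over the 7 genes past the dim limit and −0.03 without Plin5, and the centred mean in MMTV-Cre replicate 1 was −0.27 over the 9 genes, −0.17 without Cidec, −0.25 without Plin5 and −0.14 without both. No difference of the 9 genes changed sign with no filter, another use of probe sets, quantile normalization or median centring. The variance models and the block leave the differences as they are and did not include Lep and Plin4. Without 1 array, the differences of Plin1 (−0.35 to −0.32), Plin5 (−0.69 to −0.55), Adipoq (−0.20 to −0.12) and Cidec (−1.43 to −0.04) kept their direction. For Plin1, Plin5 and Adipoq this was fixed in advance, since groups that do not overlap cannot turn when 1 array is left out. Those of Lep (−0.21 to 0.15), Fabp4 (−0.12 to 0.21), Plin4 (−0.082 to 0.36), Lpl (−0.083 to 0.73) and Retn (−0.064 to 0.018) did not. A group left with 1 array is assumed to vary like the other.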
